A study of Mus musculus with 4 samples.

Results

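The insulin, growth hormone and insulin-like growth factor (IGF) axis was followed in mouse liver through 10 genes, taken as all probe sets annotated to the symbols Igfbp1, Igfbp2, Igfbp3, Igfbp4, Igf1, Igfals, Ghr, Insr, Irs1 and Irs2. They had 23 of the 45101 probe sets on the array and were 10 of the 18193 genes measured. All 10 passed a low-level filter that 11513 genes passed, and 21 of their 23 probe sets did. The livers came from C57BL/6J mice aged 2 months whose sex was not given in the sources used here. Each mouse had a first exposure, 2 intraperitoneal injections 24 h apart, and after 7 days a second exposure, 5 h before the liver was taken. Both were either phosphate-buffered saline (PBS) or ethylbenzene, an aromatic solvent, at 7 mmol per kg. The group P+P (3 mice) received PBS in both, E+P (3 mice) ethylbenzene and then PBS, P+E (5 mice) PBS and then ethylbenzene, and E+E (5 mice) ethylbenzene in both. RNA of the mice of a group was combined and hybridised to 1 array.

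Growth hormone binds its receptor, encoded by Ghr, on hepatocytes and through the kinase JAK2 and the transcription factor STAT5 drives transcription of Igf1 and Igfals. Circulating IGF-1 travels mostly in a complex of a binding protein, usually IGFBP3, and the acid-labile subunit encoded by Igfals. Insulin binds the receptor encoded by Insr, which phosphorylates the docking proteins encoded by Irs1 and Irs2. Activation of AKT then keeps the transcription factor FOXO1 out of the nucleus, and Igfbp1 and Irs2 are textbook genes that insulin represses in liver by this route.

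With 1 array per group there was no replicate, no test could be made, and no difference could be set against the spread between animals. Signals below are normalized array signals without a unit, given with both PBS-second arrays first (P+P, then E+P) and both ethylbenzene-second arrays after them (P+E, then E+E), and they are compared between arrays for 1 probe set at a time and not between genes. A log2 ratio is the difference of log2(signal + 43.2) between 2 arrays. A difference of at least 2-fold, which is 1 on that scale, served as a fixed rule of size. A signal below 120.0, the filter level, was too low to carry a fold, and where 1 array lay there the fold was computed with its signal at 120.0 and written as "at least". Pool size went with the second exposure and cannot be told apart from it. The P+P array stood apart in its control probe sets. Its 18S ribosomal RNA signal was 1872, against 122 to 182 on the other arrays, and its ratio of 3' to 5' signal for Pcx was 23.5, against 6.15 to 12.0. The part of these control signals in ratios against P+P was not tested.

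Promoter sequences were available for 9 of the 10 genes, all but Insr, in 13 windows of 300 bases that run from 250 bases before to 50 bases after an annotated start (RefSeq, GRCm38.p6). The 3 windows printed first are shown because they hold the same letters, CAAAACAA on either strand, a sequence of the insulin response element of the Igfbp1 promoter. These letters occurred in 3 of the 9 genes, beside 2.88% of the 27025 genes of the table. They were in 3 of the 13 windows, beside 2.51% of all 32851. The letters are known from the Igfbp1 promoter, so the match there was fixed in advance. Only the matches in Irs2 and Irs1 can be set beside these shares. Capitals mark CAAAACAA (or TTGTTTTG on the other strand), CACGTG (the E-box), GTAAACA (the FOXO core, TGTTTAC on the other strand) and TTCNNNGAA (the STAT5 motif). TGACGTCA (the cyclic AMP response element) and TGATGNAAT (a C/EBP-ATF element) were searched as well, also on both strands, and were found in none of the 13 windows. Each sequence is printed 5′ to 3′ on the strand of its gene.
Igfbp1, chr11:7197537-7197836, plus strand: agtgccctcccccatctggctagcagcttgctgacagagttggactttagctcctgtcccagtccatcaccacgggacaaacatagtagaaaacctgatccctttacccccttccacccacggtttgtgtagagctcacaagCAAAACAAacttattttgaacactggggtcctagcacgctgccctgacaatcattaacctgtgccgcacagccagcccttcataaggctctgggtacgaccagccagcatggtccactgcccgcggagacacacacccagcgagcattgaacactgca
Irs2, chr8:11008880-11009179, minus strand: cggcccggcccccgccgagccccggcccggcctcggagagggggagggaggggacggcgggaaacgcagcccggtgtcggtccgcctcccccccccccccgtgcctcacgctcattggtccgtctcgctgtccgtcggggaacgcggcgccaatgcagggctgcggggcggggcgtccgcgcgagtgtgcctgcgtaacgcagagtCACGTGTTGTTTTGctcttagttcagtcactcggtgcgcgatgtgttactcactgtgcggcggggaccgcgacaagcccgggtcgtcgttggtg
Irs1, chr1:82291390-82291689, minus strand: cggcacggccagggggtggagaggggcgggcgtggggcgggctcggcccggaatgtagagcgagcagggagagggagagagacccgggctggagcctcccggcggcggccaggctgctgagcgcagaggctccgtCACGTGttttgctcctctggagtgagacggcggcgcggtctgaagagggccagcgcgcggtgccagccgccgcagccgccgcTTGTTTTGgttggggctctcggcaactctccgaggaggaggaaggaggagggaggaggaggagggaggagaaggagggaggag
Igfals, the second of 3 windows, chr17:24877981-24878280, plus strand: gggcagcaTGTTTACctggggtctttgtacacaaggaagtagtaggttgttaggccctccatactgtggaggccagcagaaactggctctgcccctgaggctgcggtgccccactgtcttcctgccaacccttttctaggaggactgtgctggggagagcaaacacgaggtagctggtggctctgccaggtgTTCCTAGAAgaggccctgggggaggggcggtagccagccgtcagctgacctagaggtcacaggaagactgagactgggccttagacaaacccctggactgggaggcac

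In the Igfbp1 window CAAAACAA began 108 bases before the start. In Irs2 TTGTTTTG began 38 bases before the start, directly after a CACGTG at 44 bases, and in Irs1 it began 33 bases before the start, with a CACGTG at 115 bases. CACGTG, found in 7.15% of all windows, was also in the first of 2 windows of Igfbp2. TTCNNNGAA, found in 8.3% of all windows, was in 2 of the 3 Igfals windows and in those of no other gene of the set, and GTAAACA (3.65% of all windows) was in the Igfals window printed above. Of the 3 genes whose windows held CAAAACAA, Igfbp1 and Irs2 had higher signals on both arrays after ethylbenzene and Irs1 had lower signals on both, as the values below show. These matches describe letters in a window and not sites in use.

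**Figure D1:**
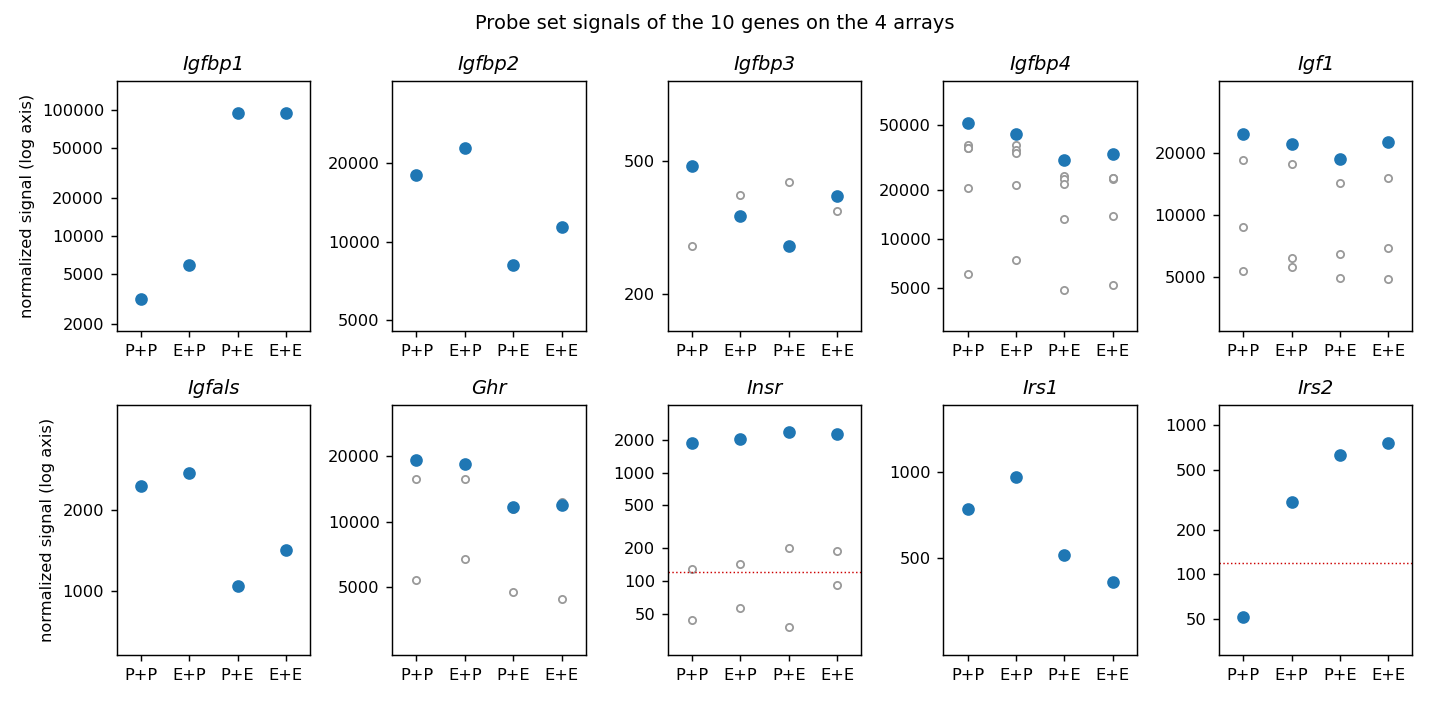
Normalized signals (vertical log axis, no unit, a range of its own in each panel) of every probe set of the 10 genes on the 4 arrays, 1 array per group. Filled points are the probe set with the highest mean signal of each gene, open points its other probe sets, and the dotted red line is the filter level of 120.0. Igfbp1 stands at 94724 on both arrays after ethylbenzene and at 3152 and 5900 on the other arrays.

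The second exposure gives 2 ratios with no array in common. The first sets P+E against P+P, after a first exposure to PBS, and the second sets E+E against E+P, after a first exposure to ethylbenzene. Where 2 values follow a gene, they come in that order. Of the 10 genes, Igfbp1 and Irs2 passed the 2-fold rule upwards in both ratios, Igfbp2 passed it downwards in both, Igfals was so in the first only and Irs1 in the second only. Each ratio thus held 2 higher and 2 lower genes. Of all genes past the filter, the first ratio had 6.53% higher and 6.7% lower by that rule, and the second had 6.91% higher and 6.75% lower. In both ratios together, 2.87% of all genes were higher and 1.86% lower. By sign alone, 3 of the 10 genes were above 0 in both ratios (27.7% of all genes), 5 were below 0 in both (37.4%), and Igf1 and Igfbp3 had opposite signs (34.7%). The arrays after ethylbenzene lay above both other arrays for 3 genes (22.3% of all genes), Igfbp1, Irs2 and Insr. They lay below both for 5 genes (31.1% of all genes), Igfbp2, Igfbp4, Igfals, Ghr and Irs1. The median log2 ratio of the 10 genes was -0.61 and -0.18, beside -0.07 and -0.05 over all genes.

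Among the binding proteins, Igfbp1 stood out. It encodes a secreted protein that binds IGFs and whose liver transcript rises in fasting and stress. Its signals were 3152, 5900, 94724 and 94724. Both arrays after ethylbenzene were far above the others, and the array of mice exposed 7 days earlier and then given PBS was above P+P. The ratios were 29.7-fold and 15.9-fold (log2 ratios of 4.89 and 4.0), which placed Igfbp1 at rank 9 and rank 15 from the highest among 11513 genes. The equal signals after ethylbenzene come from the normalization, because the probe set had rank 51 on both arrays. As deposited, the signal was 98283 on P+E but 106283 on E+E, and the log2 ratios were 4.92 and 4.15. Igfbp1 has 1 probe set, so no second measurement of its transcript was at hand.

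Igfbp2, which encodes another IGF binding protein that the liver secretes, went the other way. Its signals were 18076, 22898, 8177 and 11349, and both arrays after ethylbenzene were the lowest. It was 2.20-fold and 2.01-fold lower (log2 ratios of -1.14 and -1.01). The second value lies at the edge of the 2-fold rule.

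Igfbp4, whose product mostly inhibits IGF action, was lower by less than 2-fold. The signals of its brightest probe set were 51752, 44416, 30659 and 33517, with both arrays after ethylbenzene below the others. The log2 ratios were -0.75 and -0.41. Igfbp4 has 6 probe sets, and all 6 were below 0 in both ratios, between -0.75 and -0.31 in the first and between -0.68 and -0.41 in the second. Probe sets of 1 gene read the same RNA and are not replicates of a condition.

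Igfbp3 encodes the main carrier of circulating IGF-1 and in rodent liver is transcribed mainly outside hepatocytes. The signals of its brighter probe set were 485, 344, 278 and 394, and those of the other were 279, 397, 435 and 355. The 2 probe sets disagreed in sign in both ratios, with log2 ratios of -0.72 and 0.18 on the brighter and 0.57 and -0.15 on the other. No direction can be given for Igfbp3. Its start site lies 16136 bases from that of Igfbp1 on chromosome 11, on the opposite strand, and none of its values reached 2-fold. The summed signals of 10 Kupffer cell markers (13475, 21280, 12276 and 14488) and of 10 sinusoidal endothelial markers (11270, 11139, 10224 and 9483) describe non-parenchymal cells on the same arrays, and their part in the Igfbp3 values was not tested. Among the endothelial markers Lyve1 was higher (log2 ratios of 1.56 and 2.01), while 7 of the 10 were below 0 in each ratio. In pooled tissue, fewer cells of a type and less RNA per cell cannot be told apart.

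**Figure D2:**
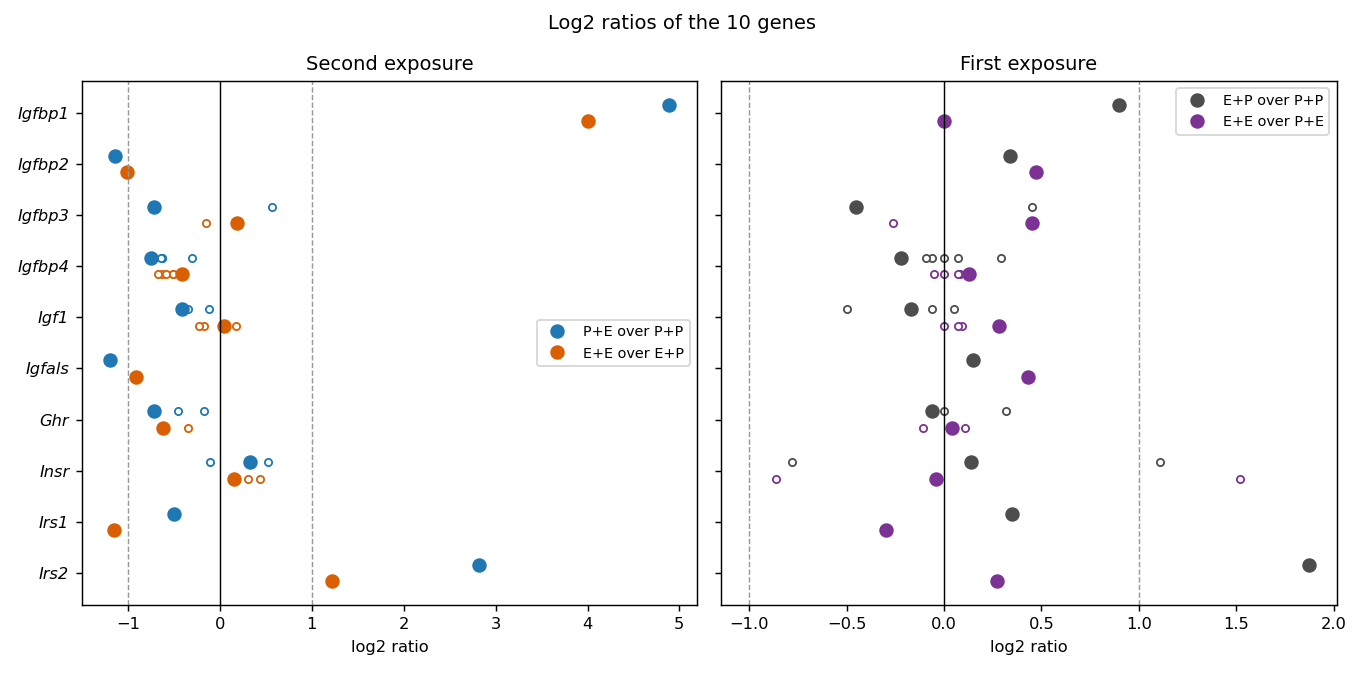
Log2 ratios (horizontal axis) of the 10 genes for the second exposure (left) and the first exposure (right), each between 2 arrays. Filled points are the brightest probe set of a gene, open points its other probe sets, dashed lines mark 2-fold. Igfbp1 (4.89 and 4.0) and Irs2 (2.82 and 1.22) lie beyond the right dashed line for the second exposure, and the probe sets of Igfbp3 lie on both sides of 0.

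The ligand stayed within 2-fold, and its complex partner lay near that size. Igf1, the growth factor that the liver secretes in response to growth hormone, had signals of 24809, 22013, 18672 and 22684 on its brightest probe set. P+E was the lowest array, and E+E lay between P+P and E+P. The log2 ratios were -0.41 and 0.04. The 4 probe sets of Igf1 were all below 0 in the first ratio, from -0.43 to -0.12, and split 2 and 2 in the second, from -0.23 to 0.17. None reached 2-fold. Igfals had signals of 2448, 2721, 1039 and 1415, and both arrays after ethylbenzene were the lowest. It was 2.30-fold and 1.90-fold lower (log2 ratios of -1.2 and -0.92), on 1 probe set.

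The receptors stayed within 2-fold. Ghr had signals of 19207, 18393, 11676 and 11989 on its brightest probe set, with the arrays after ethylbenzene below the others. The log2 ratios were -0.72 and -0.62, and all 3 of its probe sets were below 0, from -0.72 to -0.18 in the first ratio and from -0.62 to -0.35 in the second. Insr had signals of 1861, 2061, 2344 and 2286 on the probe set that passed the filter, with log2 ratios of 0.33 and 0.15. The other 2 probe sets of Insr did not pass the filter, with signals from 37.55 to 203, and are not read here.

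The substrates of the insulin receptor went in opposite directions. Irs2 had signals of 51.9, 305, 628 and 765, so that P+P alone lay below the filter level and both arrays after ethylbenzene were the highest. In the first ratio it was at least 4.11-fold higher after ethylbenzene, and in the second 2.32-fold higher. The measured log2 ratios were 2.82 and 1.22, the first being 2.04 with P+P set to the filter level. Irs1 had signals of 742, 961, 513 and 409, with both arrays after ethylbenzene the lowest. Its log2 ratios were -0.50 and -1.15, the latter 2.22-fold lower. Each of these genes has 1 probe set, and the annotation lists no accession for that of Irs2.

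What remained of the first exposure after 7 days was read from E+P against P+P, where PBS came second, and from E+E against P+E, where ethylbenzene came second, and values in this paragraph follow that order. The first of these ratios shares the P+P array with the first ratio above, so their errors go together. In the first ratio Irs2 was the only one of the 10 genes at least 2-fold apart, where 2.58% of all genes were higher and 2.73% lower by that size. It was at least 2.13-fold higher after the earlier ethylbenzene, with a log2 ratio of 1.87, which was 1.09 when the P+P signal was raised to 120.0. Igfbp1 was 1.86-fold higher (log2 ratio of 0.90). In the second ratio no gene of the 10 was at least 2-fold apart, where 3.98% of all genes were higher and 3.99% lower. None was 2-fold higher or lower in both, beside 0.226% and 0.243% of all genes. Irs2 was at 0.27 there, and Igfbp1 at 0.00, or 0.11 as deposited. Igfbp2 (0.34 and 0.47), Igfals (0.15 and 0.43) and Irs2 were above 0 in both ratios, 3 of the 10 genes beside 23.5% of all genes. None was below 0 in both (25.5% of all genes) and 6 had opposite signs (50.7%). For Igfbp2 and Igfals the E+P array was thus the highest of the 4, and E+E lay above P+E.

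Whether the response differed with the first exposure was described by the second ratio of the second exposure minus the first. This holds the error of all 4 arrays. The first-exposure ratios above, the second minus the first, give the same number, so it is not a separate observation. Irs2 had a difference of -1.60 and was the only gene of the 10 past 2-fold, where 7.03% of all genes had a difference of -1 or less and 8.08% one of 1 or more. When the P+P signal was raised to 120.0 the difference was -0.82, and none of the 10 genes was then past 2-fold. For Igfbp1 it was -0.90 (-0.77 as deposited), for Irs1 -0.65 and for Igf1 0.45. For Irs2 and Igfbp1 the signals after ethylbenzene were close on both arrays and of the PBS-second arrays E+P had the higher signal. Igfbp3 was at 0.90 on its brighter probe set and -0.72 on the other, and Igfbp2, Igfbp4, Igfals, Ghr and Insr lay between -0.18 and 0.35.

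Genes whose 4 values were most like those of Igfbp1 were found by Euclidean distance, after the mean of each gene over the 4 arrays was taken off its log2 values. The 5 nearest of the genes past the filter were Mt1 (distance 0.43), 2010003K11Rik (0.49), Tacc2 (0.65), Arid5a (0.72) and Socs3 (0.75). Their log2 ratios for the second exposure were 4.91 and 3.5 for Mt1, a metallothionein, 4.25 and 3.88 for 2010003K11Rik, and 4.34 and 4.64 for Tacc2. They were 4.32 and 4.68 for Arid5a, whose product stabilises inflammatory transcripts, and 4.03 and 3.56 for Socs3, a feedback inhibitor of cytokine signalling. Arid5a lay below the filter level on P+P and E+P, and with those signals at that level its ratios were 3.58 and 3.87 and its distance 0.98. Mt1, like Igfbp1, had equal normalized signals on P+E and E+E (145878), which the normalization gives to probe sets of equal rank. Distances were not computed from the signals as deposited. Likeness over 4 arrays is a description and does not bear on shared control.

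**Figure D3:**
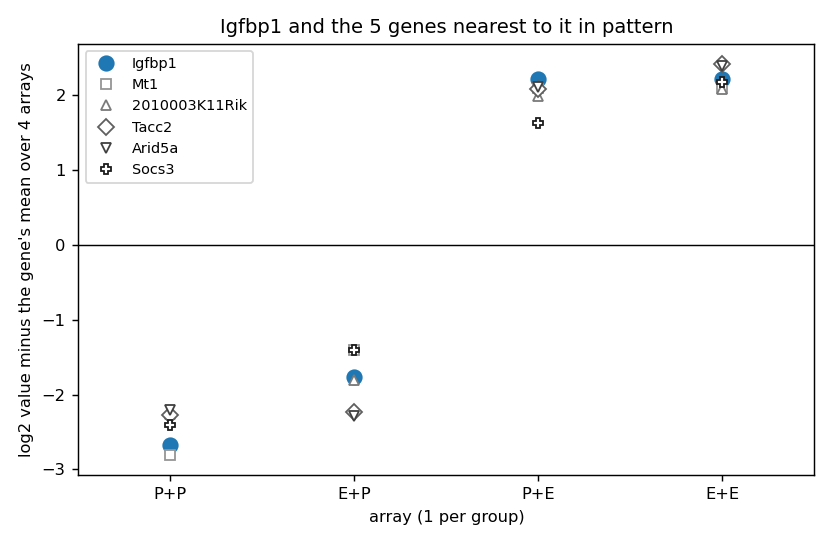
Log2 values less the mean of each gene over the 4 arrays (vertical axis) for Igfbp1 and the 5 genes nearest to it in pattern, by array, 1 array per group. All 6 genes lie below 0 on P+P and E+P and above 0 on P+E and E+E. On E+P, Igfbp1 (-1.77) lies between Socs3 (-1.40) and Tacc2 (-2.23).

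The other genes of the pathway were read from 8 lists. Their counts stand beside shares over all genes of 6.53% and 6.91% at least 2-fold higher and 6.7% and 6.75% lower. The lists are short, so counts of 1 or 2 genes can make up a large part of a list. Such counts are not read as a result about the list. Growth hormone receptor signalling had medians of 0.74 and 0.57 over the 10 of its 11 genes past the filter, and 2 and 3 of them were at least 2-fold higher and none lower. Socs3 (4.03 and 3.56) and Socs2 (0.90 and 2.34) encode feedback inhibitors of cytokine and growth hormone signalling. The genes past 2-fold were Socs3 and Sh2b2 (1.16 and 0.53) in the first ratio and Socs3, Socs2 and Stat5a in the second. Socs2 was at 1.2 in the first ratio when probe sets with names ending in _x_at or _s_at were left out. Only 1 of the 2 probe sets of Sh2b2 had that sign in each ratio. Stat5a was at 0.83 and 1.13 and Sh2b1, an adaptor of JAK2, at 0.96 and 0.84. With the mean over probe sets, Sh2b1 was at 0.49 and 0.62. Liver genes that depend on the pulse pattern of growth hormone were read as male-biased and female-biased. The 8 measured male-biased genes had medians of -0.72 and -0.62, with 3 at least 2-fold lower in each ratio and 1 higher. Hsd3b5, a steroid dehydrogenase gene, was at -3.10 and -2.28, Cyp7b1 at -1.91 and -1.46, and Elovl3, a fatty acid elongase gene, at 1.91 and 1.85. With the mean over probe sets, the second ratio was -0.61 for Cyp7b1 and -0.53 for Cyp2u1 (-1.49 on its brightest), which left 1 of the 3 lower genes there, Hsd3b5. The 5 female-biased genes past the filter had medians of 0.85 and 0.01, with 2 at least 2-fold higher in the first ratio and none in the second. The 2 higher genes were Cyp2b9 (2.63 and 0.76) and Cyp17a1 (1.56 and 0.60). The P+P signal of Cyp2b9 was 120.6, at the filter level, and its E+P signal was 509. Cux2 was at 0.85 and -0.36, the first 1.03 with the mean over probe sets, and Hao2 at -0.24 and -0.45.

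In the insulin pathway, 27 of 30 measured signal transduction genes passed the filter, with medians of -0.21 in both ratios. Of them none and 1 were at least 2-fold higher, and 3 and 3 were lower. The higher gene was Grb2 (0.96 and 1.07), whose second ratio was 0.60 with the mean over probe sets. Pik3r2 (-0.54 and -1.33) was among the lower genes of the second ratio. Gab1, a docking protein gene (-1.2 and -1.43), and Foxo3, a forkhead factor gene (-1.18 and -1.62), were at least 2-fold lower in both, but with the mean over probe sets the first ratio was -0.67 for Gab1 and -0.87 for Foxo3. Foxo1 was at -0.13 and -0.53. Of 14 negative regulators past the filter, 2 and 3 were at least 2-fold higher. Socs3 and Trib1 (1.2 and 1.24) were so in both ratios and Ptpn1, which encodes a phosphatase of the insulin receptor, in the second (0.65 and 1.0). Only 1 of the 2 probe sets of Trib1 had that sign, and their mean was at 0.49 and 0.45, under 2-fold in both. Ptpn1 lay at the edge of the rule and was at 0.97 in the second ratio with the signals as deposited, so of the 3 genes counted there only Socs3 passed under every setting tried. The list had medians of -0.27 and -0.03, and Inppl1 (-0.43 and -1.13) was lower in the second ratio. Phlpp1 was at -0.87 and -0.72.

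Of 11 liver genes that insulin represses through FOXO1, beside Igfbp1 and Irs2, 1 was at least 2-fold higher in each ratio and 1 and 3 were lower, with medians of -0.12 and -0.46. The higher gene was Pdk4, which restrains glucose oxidation, with signals of 112, 59.0, 3220 and 7895. Both PBS-second arrays lay below the filter level, and with them at that level its log2 ratios were 4.32 and 5.6. Klf15, a fasting-induced transcription factor gene, was at -1.01 and -1.72. Pck1, a rate-limiting enzyme of gluconeogenesis, was at -0.50 and -1.10, although only 2 of its 3 probe sets had that sign in each ratio and their mean was at -0.14 in the second, and G6pc, the last enzyme of glucose release, was at -0.24 and -0.27. Ppargc1a, a coactivator of gluconeogenic genes, was at -0.67 and -2.08, the second being -1.2 when the E+E signal was raised to 120.0 and -0.97 with the mean over its probe sets. The list thus held values in both directions.

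Of 12 measured genes that insulin induces, 4 and 5 were at least 2-fold lower and 1 was higher in each ratio, with medians of -0.40 and -0.32. Srebf1, a lipogenic transcription factor gene, was at -1.15 and -1.58, Mid1ip1 at -1.78 and -1.21, and Angptl8, a secreted factor, at -4.23 and -2.83. Pnpla3 was higher, at 2.25 and 1.74, or 1.30 and 0.99 with its low signals at the filter level. Of 15 measured genes in the list of other IGF system genes, 8 passed the filter, with 1 and 0 at least 2-fold higher and 1 and 2 lower. Several of these lay near the filter level. Igf2 was at 1.56 and 0.18, the first 0.84 with P+P at that level, and Igf1r, the IGF-1 receptor gene, at -0.16 and -1.10, the latter -0.57 once E+E was raised to it. Igfbp5 was at 0.13 and -1.34, with its 2 probe sets of one sign in the second ratio, and Igfbp6 at -1.77 and 0.15, the first -0.42 with P+E at that level. Over all genes the medians were -0.07 and -0.05, with 6.53% and 6.91% at least 2-fold higher and 6.7% and 6.75% lower.

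**Figure D4:**
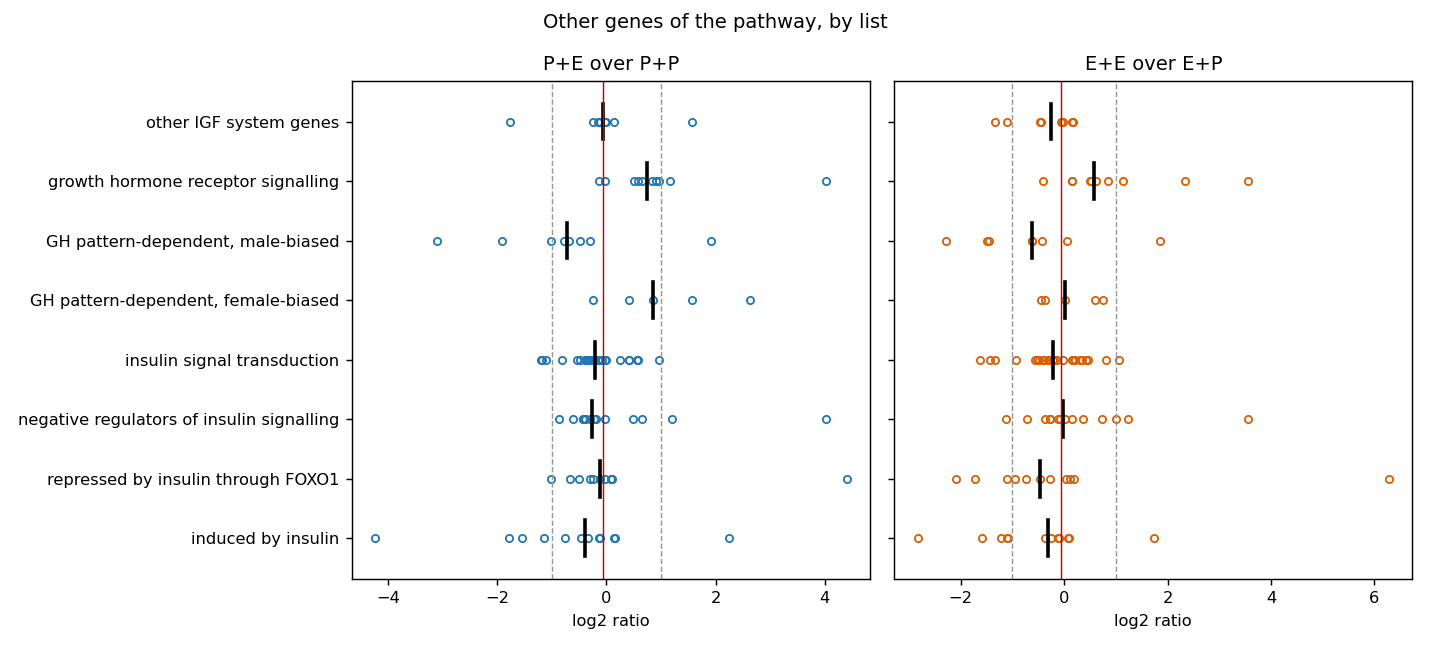
Log2 ratios (horizontal axis) of the genes past the filter in the 8 lists, for P+E over P+P (left) and E+E over E+P (right). Each circle is 1 gene, black bars are list medians, the red line is the median of all genes and dashed lines mark 2-fold. The median of growth hormone receptor signalling (0.74 and 0.57) lies to the right of the red line in both panels and that of the male-biased genes (-0.72 and -0.62) to the left.

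Markers of other cells on the same arrays were as follows. The 10 hepatocyte markers had summed signals of 910829 to 960712 on the 4 arrays. Single markers differed within that sum, with 5 above 0 and 5 below 0 in each second-exposure ratio. Apob was at 27987 on P+P and at 62547 to 82975 on the other arrays, with log2 ratios of 1.16 and -0.07. Of the pancreatic acinar markers 8 were measured, and each of the 8 passed the 2-fold rule upwards in both second-exposure ratios, with summed signals of 692, 735, 6647 and 6658. None of 6 pancreatic islet markers passed the filter, their summed signals were 259 to 390, and Ins2, an insulin gene, had signals of 61.1, 118, 51.2 and 62.5. The 7 measured neutrophil markers summed to 1310, 633, 4007 and 6437, the 10 stellate cell markers to 21374 to 25102, the 5 cholangiocyte markers to 850 to 1379 and the 3 adipocyte markers, none past the filter, to 112 to 362. The acinar list kept its 8 calls in both ratios with low signals at the filter level. The neutrophil list did not go one way in the first ratio, where 4 of the 7 genes were below 0, among them Camp (-1.51) and Ngp (-0.89). In the second ratio all 7 were above 0. S100a8 (3.29 and 3.62) and S100a9 (3.62 and 4.83) carried most of its sum after ethylbenzene. Several signals lay below the filter level, among them Camp on P+E (48.9), S100a8 on P+P (116) and S100a9 on E+P (70.3). With low signals at that level, 2 and 3 of the 7 genes were at least 2-fold higher and 0 were lower in each ratio. The acinar markers, S100a8 and S100a9 were higher after the second ethylbenzene, as Igfbp1 and Irs2 were, and their part in those values was not tested.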

How the data were processed

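Liver RNA pooled by group was measured on 4 Affymetrix arrays. The authors deposited linear intensities, 1 per probe set, whose trimmed means were equal on all arrays, as the values show. The summarisation software was not given in the sources used here. Deposited intensities were quantile-normalized over the arrays, because their log2 medians lay 0.24 apart, and expressed as log2(signal + 43.2), 43.2 being the 25th percentile of all deposited signals. This understates differences of low genes and compresses those of the brightest. Gene names came from the platform annotation, with symbols updated through Entrez identifiers (34741 of 34945 probe sets with 1 symbol). A gene was read from its probe set with the highest mean, and genes passed the filter with a mean log2 value at or above the median over probe sets (a signal of 120.0). The code was checked on simulated arrays with planted changes larger than the 2-fold rule and small noise. That check does not bear on calls near 2-fold or on the spread between animals. No p-value was computed.

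Named were all 10 members, up to 4 genes of each of 8 lists with the largest mean second-exposure ratio and the 5 genes nearest to Igfbp1 in pattern. Foxo1, G6pc, Inppl1, Sh2b2, Apob, Lyve1 and the neutrophil genes were named after their values were seen. Listed genes without a probe set were not analysed. The members, the 8 lists and the 9 cell type lists were chosen with earlier results of these data known. Promoters came from RefSeq (GRCm38.p6). Alternatives were the scaling, pseudocount, probe set choice, filter and low signals. Python 3.11.15, numpy 2.4.6 and pandas 2.3.3 were used.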

Additional observations from a re-analysis of the deposited data

Results flagged for a closer look

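Some of the 10 genes had log2 ratios of opposite sign under the same contrast in the 2 kinds of mice. The differences were not tested, since each ratio rests on 2 arrays, and over all genes past the filter 34.7% had opposite signs for the second exposure and 50.7% for the first. For the second exposure, Igfbp3 was at -0.72 in mice given PBS first and 0.18 in mice given ethylbenzene first, and Igf1 was at -0.41 and 0.04. For the first exposure, in mice given PBS second and then in mice given ethylbenzene second, Igfbp3 was at -0.45 and 0.45, Igfbp4 at -0.22 and 0.13, Igf1 at -0.17 and 0.28, Ghr at -0.06 and 0.04, Insr at 0.14 and -0.04 and Irs1 at 0.35 and -0.30. None of these values reached 2-fold, and all are from the brightest probe set of each gene. The other probe set of Igfbp3 had the reverse signs, 0.57 and -0.15 for the second exposure and 0.45 and -0.26 for the first. The 4 probe sets of Igf1 split 2 and 2 in mice given ethylbenzene first. Those of Igfbp4 and Ghr differed in sign for the first exposure.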

How the results depend on the processing

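No paired analysis was possible because each group had 1 array, and no array could be left out. Of 350 values of the 10 genes under the other settings, 348 kept their side of the 2-fold rule and 2 did not. Both were the difference of ratios of Irs2, at -0.97 with the pseudocount at the median signal and -0.82 with low signals at the filter level, so that 0 genes of the 10 instead of 1 were then past 2-fold. Irs2 on P+P lies below the filter level, which limits that value. Many of the 350 values could not move. For genes with 1 probe set, the settings of probe set choice could only repeat the main value. Raising low signals to the filter level could move Irs2 only. A value under 2-fold could also shrink or change sign and still keep its side. Igf1 in E+E against E+P was at 0.04, and at -0.05 with the mean over probe sets. Of the genes of the 8 lists, 12 were at least 2-fold lower in P+E against P+P and 7 with the mean over probe sets in place of the brightest; the cause was not tested. Of 434 values of named list genes, 406 kept their side, a count with the same kinds of limit. The median of all genes in P+E against P+P was -0.11 at a common 75th percentile and -0.05 as deposited.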

Other observations

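G6pc, the glucose-6-phosphatase gene of the list that insulin represses, followed the first exposure and not the second. G6pc was chosen after its values were seen, so the share of genes given below does not measure support. Its signals were 16133 and 7977 on the PBS-second arrays (P+P, then E+P) and 13685 and 6625 on the ethylbenzene-second arrays (P+E, then E+E), so that both arrays of mice given ethylbenzene 7 days earlier were the lowest. The log2 ratios for the first exposure were -1.01 and -1.04, which share no array, and 0.243% of genes past the filter were at least 2-fold lower in both. Under 7 other settings, added after the values were seen, the ratios lay between -1.05 and -1.0 and between -1.05 and -1.03. G6pc has 1 probe set, and the values lie at the edge of the 2-fold rule. With 1 probe set and no signal below the filter level, the settings of probe set choice and of low signals could only repeat the main values.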
